A study of Homo sapiens with 6 samples.

Results

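Of 65535 transcript clusters in the deposited table, 1385 carried 2 or more gene symbols, and the 1344 of these that were not made up of histone symbols alone are described here. A transcript cluster is the unit that a human transcriptome array reports: a group of probes laid over one transcribed stretch of the genome, with 1 value per array. The members were chosen from the array's annotation by counting symbols, with no measured value, and 41 clusters holding histone symbols alone were left out. A further 22685 clusters had 1 symbol and 41465 had none in the annotation used here. Among the members, 983 listed 2 symbols, 200 listed 3 and 161 listed 4 or more, up to 16. Of the 3701 symbols listed, 3678 matched a gene of the RefSeq annotation (GRCh38.p14).

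RNA came from PC3-ML, a metastatic derivative of the human prostate cancer cell line PC-3, in 2 groups of 3 arrays. One group had received 500 nM PD 0332991 in DMSO for 24 h and the other DMSO alone for the same time, and all cells were grown in DMEM with serum. PD 0332991, or palbociclib, inhibits CDK4 and CDK6, and the series title describes its use to re-activate the retinoblastoma protein pRB. Only 1 cell line, 1 dose and 1 time were measured, and no label tells whether samples of the same treatment were cultured separately, so p-values cover the scatter among these arrays and that scatter may be technical.

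Several symbols fall on one cluster for different reasons. In 187 members all symbols were names of 1 gene. Young gene duplicates such as the FAM72 family share so much sequence that a probe can bind the RNA of each copy. MicroRNAs and small nucleolar RNAs (snoRNAs, which guide chemical modification of ribosomal RNA) are often cut from the introns of a host gene, so that host and small RNA share a stretch of genome. The retinoblastoma protein and its relatives hold back genes needed for DNA replication and mitosis through E2F and DREAM complexes, which bind E2F and CHR elements near gene starts. CCAAT letters were searched as well and are not taken as sites of these complexes.

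Deposited values, taken as log2, ran from 2.04 to 19.93 over all clusters, and array medians from 4.48 to 4.56. Pearson correlations across clusters, which are not independent replicates, were 0.9934 to 0.9960 between arrays of a group and 0.9921 to 0.9940 between groups. The epithelial keratins KRT8, KRT18 and KRT19 lay between the 96.1 and 97.8 percentile of level over all clusters, EPCAM at the 79.3 and CDH1 at the 76.8 percentile. The prostate genes TMPRSS2, KLK3 and KLK2 were at the 62.3, 46.1 and 7.64 percentile. All leukocyte and endothelial markers measured lay at or below the 49.4 percentile, as did the fibroblast markers DCN, COL1A2 and PDGFRB, with COL1A1 at the 75.0 percentile. KRT19 was 0.41 higher with PD 0332991 (limma adjusted p = 0.0415), and none of the other markers passed the threshold. In bulk RNA, fewer cells of a kind or cycle stage and less RNA per cell cannot be told apart.

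The upstream sequences of genes in the 6 members with the largest falls are shown first, because those members changed together and list replication and mitosis genes. They are the 250 bases before an annotated start, 5′ to 3′ on the gene's strand, from RefSeq (GRCh38.p14), with capitals marking CCAAT, or ATTGG on the opposite strand, and the CHR letters TTTGAA, or TTCAAA on the opposite strand. Where several starts were annotated, the first listed was used. For FAM72A and FAM72C it was instead the start whose upstream bases were most like those of a related gene, FAM72D. FAM72A is at chr1:206202840-206203089 and FAM72C at chr1:143971987-143972236, both on the minus strand. BUB1B is at chr15:40160819-40161068 and RRM1 at chr11:4094435-4094684, both on the plus strand, while CIT is at chr12:119877321-119877570 and SPAG5 at chr17:28599026-28599275, both on the minus strand.
FAM72A: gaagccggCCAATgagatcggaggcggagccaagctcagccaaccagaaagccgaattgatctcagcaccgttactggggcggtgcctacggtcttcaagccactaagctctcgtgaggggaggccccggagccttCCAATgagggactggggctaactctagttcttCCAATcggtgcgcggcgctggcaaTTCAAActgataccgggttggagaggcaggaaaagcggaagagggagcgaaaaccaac
FAM72C: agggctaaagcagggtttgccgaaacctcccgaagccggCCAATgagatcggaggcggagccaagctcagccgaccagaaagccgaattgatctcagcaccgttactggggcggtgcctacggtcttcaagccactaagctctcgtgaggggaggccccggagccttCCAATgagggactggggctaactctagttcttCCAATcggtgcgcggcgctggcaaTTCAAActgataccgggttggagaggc
BUB1B: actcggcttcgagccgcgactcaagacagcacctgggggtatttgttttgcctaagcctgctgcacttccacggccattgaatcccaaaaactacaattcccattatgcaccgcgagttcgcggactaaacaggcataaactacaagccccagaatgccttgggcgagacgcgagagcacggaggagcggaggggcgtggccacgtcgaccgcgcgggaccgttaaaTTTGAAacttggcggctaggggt
RRM1: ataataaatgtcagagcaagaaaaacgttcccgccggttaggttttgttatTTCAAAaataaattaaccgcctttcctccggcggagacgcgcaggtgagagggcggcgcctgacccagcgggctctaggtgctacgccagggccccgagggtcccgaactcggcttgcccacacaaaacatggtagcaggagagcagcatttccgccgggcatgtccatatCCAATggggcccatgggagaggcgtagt
CIT: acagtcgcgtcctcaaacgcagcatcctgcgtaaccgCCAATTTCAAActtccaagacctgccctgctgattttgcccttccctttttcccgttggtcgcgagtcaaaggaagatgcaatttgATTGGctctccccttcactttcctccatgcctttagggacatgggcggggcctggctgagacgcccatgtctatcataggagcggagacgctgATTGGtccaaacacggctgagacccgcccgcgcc
SPAG5: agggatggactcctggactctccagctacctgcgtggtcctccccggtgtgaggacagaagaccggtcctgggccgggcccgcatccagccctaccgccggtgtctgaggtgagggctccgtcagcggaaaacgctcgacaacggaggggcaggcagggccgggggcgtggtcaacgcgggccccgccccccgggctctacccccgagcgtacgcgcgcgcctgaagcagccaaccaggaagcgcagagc

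FAM72A and FAM72C matched at 218 of 219 aligned bases upstream (99.5%), and both held 3 CCAAT matches followed by the CHR letters, 53 to 58 bases before the start in FAM72A and 22 to 27 bases before it in FAM72C. Both starts were chosen for likeness to FAM72D, so this match and shared layout are not independent of the choice. BUB1B held the CHR letters 18 to 23 bases before its start and no CCAAT. In CIT a CCAAT and the CHR letters stood directly next to each other. SPAG5 held neither. Over the 35 genes with an upstream sequence that the members with falls listed, 20 held CCAAT (57.1%) and 8 the CHR letters (22.9%). Of the 23 genes listed by members with rises, 10 held CCAAT (43.5%) and 3 the CHR letters (13.0%). The shares over all 27305 genes of the table were 37.0% for CCAAT and 16.1% for the CHR letters. Over the 1187 genes listed by any member they were 39.1% and 11.4%. In all these shares a gene was counted if any of its annotated starts held the letters. An E2F motif, searched as TTTCGCGC, TTTGGCGC or TTTCCCGC on both strands, was found in 5 of the 35 genes (14.3%), in 0 of the 23, in 4.38% of genes listed by any member and in 2.85% of all genes. None of the 12 genes of the replication and division members that fell held one of these 3 spellings, while 5 of them, the first 5 shown above, held the CHR letters (41.7%) and 6 held CCAAT (50.0%). FAM72A and FAM72C, near-identical upstream, are counted as separate genes here. The lists behind the 12 genes were chosen with results of these data known. A match describes these letters in this window and is not a measured binding site.

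Mature microRNAs of 4 members with falls (CIT, CBX5, STMN1 and PTBP1), of the 2 microRNAs on the DLEU2 cluster and of the rising MIR22 cluster are shown because they name what those clusters overlap. Each is given 5′ to 3′ from RefSeq (GRCh38.p14), with its seed, bases 2 to 8, in capitals.
hsa-miR-1178-3p: uUGCUCACuguucuucccuag
hsa-miR-1178-5p: cAGGGUCAgcugagcaug
hsa-miR-3198: gUGGAGUCcuggggaauggaga
hsa-miR-3917: gCUCGGACugagcagguggg
hsa-miR-4745-5p: uGAGUGGGgcucccgggacggcg
hsa-miR-4745-3p: uGGCCCGGcgacgucucacgguc
hsa-miR-15a-5p: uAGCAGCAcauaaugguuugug
hsa-miR-16-5p: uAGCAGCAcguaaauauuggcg
hsa-miR-22-3p: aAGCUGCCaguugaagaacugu
The first lies inside CIT at chr12:119713649-119713669 on the minus strand, and miR-3198 inside CBX5 at chr12:54231407-54231428 on the minus strand. MiR-3917 lies inside STMN1 at chr1:25906384-25906403 on the minus strand, and miR-4745-5p inside PTBP1 at chr19:804941-804963 on the plus strand. Only miR-15a-5p, at chr13:50049167-50049188, and miR-16-5p, at chr13:50049027-50049048, share a seed, AGCAGCA. Over the 23 mature sequences listed for changed members there were 21 distinct seeds, with hsa-miR-1244 counted at each of 2 loci. The values below measure the transcript cluster, and levels of mature microRNAs were not measured.

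Across the 1344 members, 34 fell and 17 rose with PD 0332991 (limma, Benjamini-Hochberg adjusted p under 0.05 over all 65535 clusters), and 1293 did not pass. The members that changed made up 3.79%, where 2.26% of all clusters and 4.35% of the clusters with 1 symbol did. Members with falls were 2.53% against 1.43% of all clusters, and members with rises 1.26% against 0.835%. The median level of the members was 5.60, against 4.50 over all clusters, and all 51 that changed lay above the median level of all clusters. Above that level 5.62% of 908 members changed, against 4.39% of all clusters, with 3.74% of those members and 2.83% of all clusters lower and 1.87% of those members and 1.57% of all clusters higher. Clusters with 1 symbol above that level changed more often than those members, at 6.91%, with 4.52% lower and 2.40% higher. The falls were larger than the rises in these samples: 6 members fell by 2-fold or more and none rose by as much, and the median change was -0.55 among the falls and 0.46 among the rises. The same held over all clusters, of which 272 fell and 19 rose by 2-fold or more, with medians of -0.65 and 0.49. The PD 0332991 and DMSO arrays did not overlap in 380 members (28.3%), against 19.6% of all clusters and 29.7% of clusters with 1 symbol.

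These counts depend on the samples and clusters in the fit. With each of the 6 arrays left out in turn, 17 to 19 members fell and 2 to 7 rose, with each array centred on its median 34 fell and 11 rose, and with the fit confined to clusters that had a symbol, 64 fell and 55 rose, where 11.1% of those clusters passed, 5.73% lower and 5.34% higher.

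**Figure D1:**
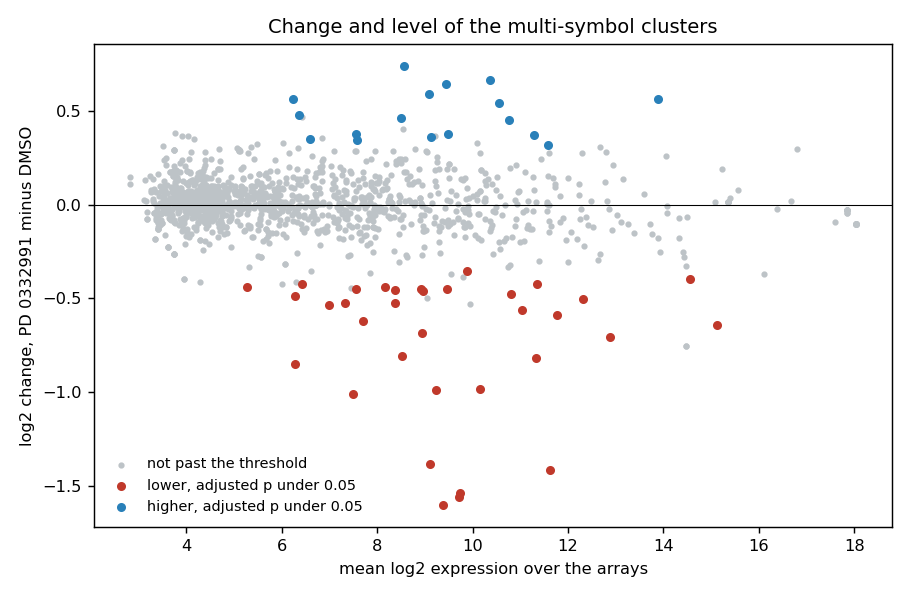
Each point is 1 of the 1344 multi-symbol clusters, with its mean log2 expression over the 6 arrays on the horizontal axis and its log2 change, PD 0332991 minus DMSO, on the vertical axis. Red points are the 34 that fell and blue points the 17 that rose (limma adjusted p under 0.05), and the points furthest from 0 are falls.

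The 6 largest falls were in members that listed replication or division genes. Of the 11 members that listed a gene of the replication, nucleotide supply, repair or mitosis lists, 10 fell (90.9%) and none rose, against 1.43% of all clusters with falls, and the median change was -1.01 against 0.02 over all clusters. All 7 mitosis members fell, among them the FAM72 clusters, which were placed on that list. The remaining member, NME2/NME1-NME2, a nucleoside diphosphate kinase with its readthrough transcript, had a change of 0.05 (limma adjusted p = 0.817). The lists were chosen with results of these data known, so that the direction of this count is not independent evidence. They also do not hold every gene of these kinds. ERCC5/BIVM-ERCC5, which names a repair nuclease and is on no list, rose by 0.36 (limma adjusted p = 0.0352). HAUS4/MIR4707 and DDX12P/DDX11, also on no list, had changes of -0.62 and -0.49 (limma adjusted p = 0.0178 and 0.0133). No member listed a gene of the G1/S regulator list, and none listed MCM7 or SMC4.

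The FAM72 genes gave the largest fall and the third largest. FAM72A, the best known of these copies, binds the uracil-DNA glycosylase UNG and lowers it. The cluster FAM72B/FAM72C had log2 values of 8.62, 8.48 and 8.65 in PD 0332991 arrays, against 10.11, 10.28 and 10.16 in DMSO arrays. All 3 treated arrays lay more than a log2 unit below the lowest DMSO array. The fall was 3.03-fold (log2 change -1.60 ± 0.076 SE, n = 3 each, limma adjusted p = 0.000205). The cluster FAM72A/FAM72C/FAM72B had 9.03, 8.79 and 9.07 in PD 0332991 arrays, against 10.46, 10.51 and 10.54 in DMSO arrays. It too separated the groups with no overlap, with a 2.90-fold fall (log2 change -1.54 ± 0.087 SE, limma adjusted p = 0.000412).

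Clusters carrying 1 symbol of the same family also fell. FAM72D had 8.93, 8.98 and 9.09 in PD 0332991 arrays, against 10.99, 10.84 and 11 in DMSO arrays, a 3.84-fold fall (limma adjusted p = 9.02e-05). FAM72C alone had 7.60, 7.42 and 7.70 in PD 0332991 arrays, against 9.004, 9.02 and 9.22 in DMSO arrays, a 2.84-fold fall (limma adjusted p = 0.000806). The groups did not overlap in either cluster. The change of FAM72A/FAM72C/FAM72B lay 0.40 above that of FAM72D (95% interval 0.19 to 0.62, limma adjusted p = 0.0966 over 335 pairs of clusters), and that of FAM72B/FAM72C 0.34 above it (interval 0.10 to 0.58, adjusted p = 0.168), so that neither difference passed. Against FAM72C alone the differences were -0.033 (interval -0.17 to 0.10) and -0.094 (interval -0.31 to 0.12). With genes this alike, the share of each copy in a value cannot be told apart.

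The SRGAP2 genes, which encode regulators of cell protrusions and neuronal development, stand head to head with FAM72 genes: the nearest annotated starts of FAM72A and SRGAP2 are 566 bases apart on opposite strands, and those of FAM72D and SRGAP2B 569 bases apart. SRGAP2/SRGAP2D had 8.10, 8.12 and 8.20 in PD 0332991 arrays, against 8.53, 8.63 and 8.62 in DMSO arrays. It fell 1.37-fold (log2 change -0.45, limma adjusted p = 0.0192), though with any single array left out it no longer passed, with an adjusted p of up to 0.0985. SRGAP2B, with 1 symbol, fell 1.31-fold (log2 change -0.39, limma adjusted p = 0.0341). Both falls were smaller in size than those of the 4 FAM72 clusters, a difference of changes that was not tested.

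**Figure D2:**
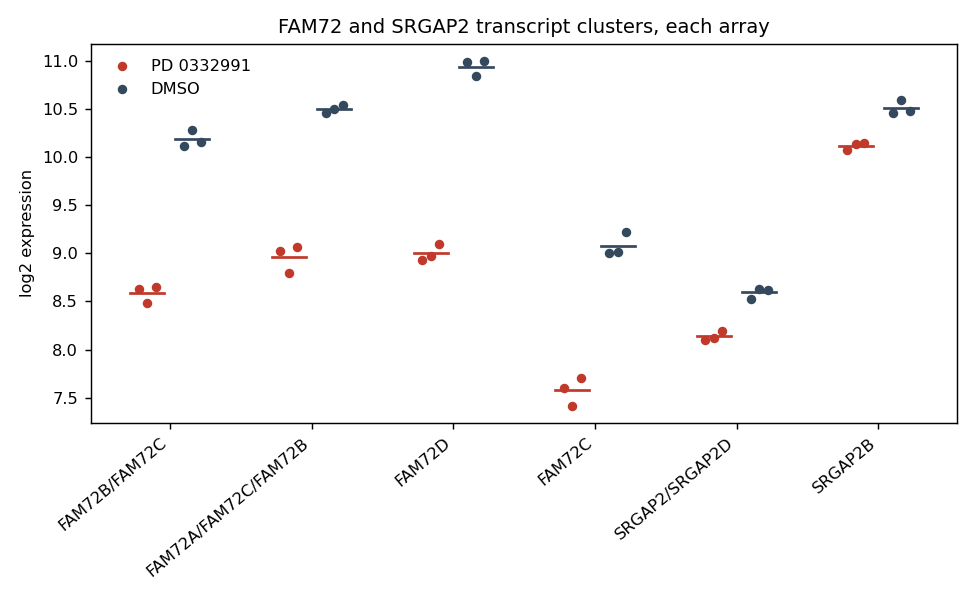
Log2 expression of the 4 FAM72 and 2 SRGAP2 clusters is plotted for each PD 0332991 array (red) and DMSO array (blue), with lines at the group means. The FAM72 clusters have log2 changes between -1.94 and -1.51, and the 2 SRGAP2 clusters -0.45 and -0.39.

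Other mitosis members fell with them. BUB1B encodes BubR1, a kinase-like protein of the spindle assembly checkpoint, and shares its cluster with PAK6, a p21-activated kinase whose gene lies 17.9 kb away in RefSeq. PAK6/BUB1B had 8.86, 8.95 and 9.02 in PD 0332991 arrays, against 10.53, 10.49 and 10.47 in DMSO arrays. The groups were far apart, with a 2.94-fold fall (log2 change -1.56 ± 0.065 SE, limma adjusted p = 0.000115). CIT encodes citron kinase, which acts in the last step of cell division, and MIR1178 lies within it. CIT/MIR1178 had 8.41, 8.43 and 8.44 in PD 0332991 arrays, against 9.77, 9.85 and 9.81 in DMSO arrays. Each group spanned less than 0.1 on the log2 scale, and the fall was 2.61-fold (log2 change -1.38 ± 0.054 SE, limma adjusted p = 9.91e-05).

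SPAG5 encodes astrin, a spindle protein needed to hold chromosomes aligned, and its cluster also names SGK494, now RSKR, 8.94 kb away. SGK494/SPAG5 had 7.003, 7.01 and 6.97 in PD 0332991 arrays, against 8.003, 8.09 and 7.93 in DMSO arrays, a 2.01-fold fall (limma adjusted p = 0.000606) with no overlap. RAD21, a cohesin subunit, with MIR3610 had 10.88, 10.88 and 10.99 in PD 0332991 arrays, against 11.68, 11.75 and 11.78 in DMSO arrays, a 1.77-fold fall (limma adjusted p = 0.00181). The smallest fall of the mitosis members was that of CENPP/LOC100128361, which names a centromere protein, at -0.42 (limma adjusted p = 0.0164), and leaving out any single array ended its call, with an adjusted p of up to 0.0891.

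Members of the nucleotide, repair and replication lists were few. RRM1 encodes the large subunit of ribonucleotide reductase, the enzyme that makes deoxynucleotides, and its cluster also names the long noncoding RNA LINC02749, 48.2 kb away. RRM1/LINC02749 had 10.84, 10.93 and 10.96 in PD 0332991 arrays, against 12.23, 12.34 and 12.40 in DMSO arrays. Every treated array lay below every DMSO array, and the fall was 2.66-fold (log2 change -1.41 ± 0.071 SE, limma adjusted p = 0.000261). RAD54B, a motor protein of homologous recombination, with FSBP had 8.20, 8.02 and 8.14 in PD 0332991 arrays, against 8.84, 8.92 and 9.03 in DMSO arrays, a 1.75-fold fall (limma adjusted p = 0.00487). PRIM2, the large primase subunit, with its pseudogene copy PRIM2BP fell by 0.45 on the log2 scale (limma adjusted p = 0.0139), and this call was lost when DMSO array 2 or 3 or any PD 0332991 array was left out, with an adjusted p of up to 0.0802.

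**Figure D3:**
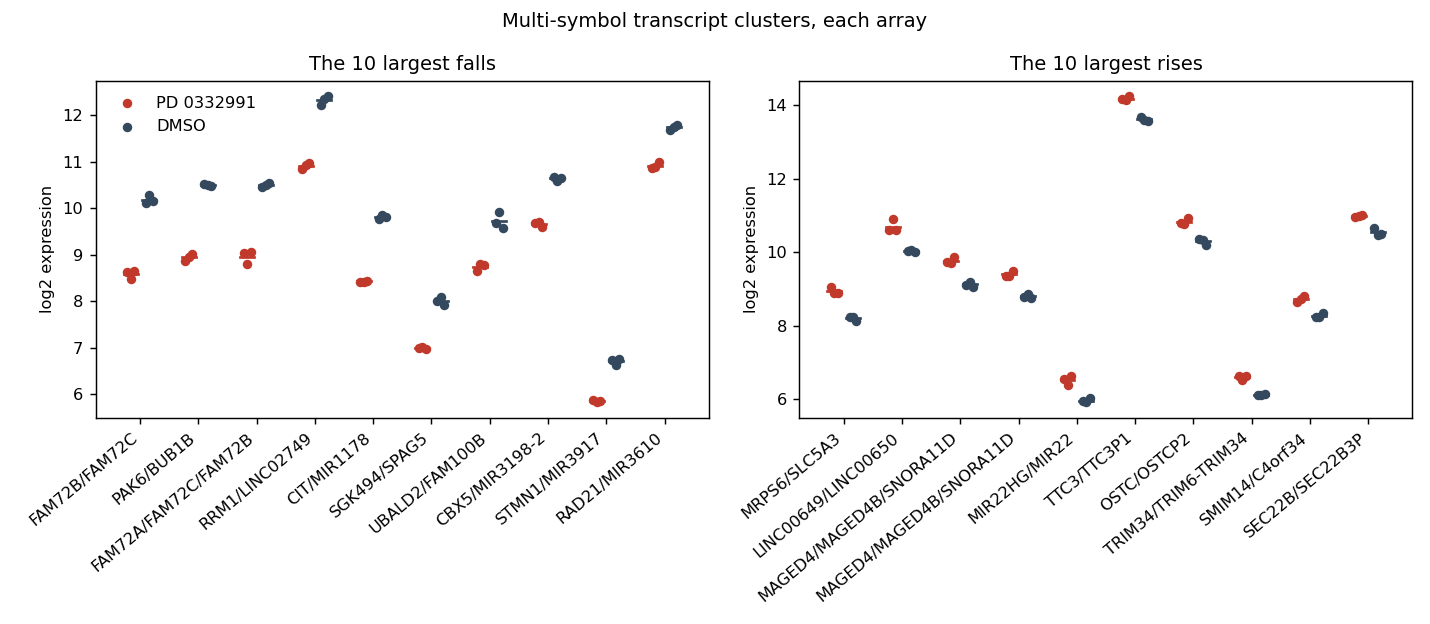
Log2 expression of the 10 members with the largest falls (left) and the 10 with the largest rises (right), 1 point per array with PD 0332991 in red and DMSO in blue and lines at the group means. No PD 0332991 array overlaps a DMSO array in any of these members, and the log2 changes reach -1.60 on the left and 0.74 on the right.

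Clusters that named a gene with a microRNA, snoRNA or small Cajal body RNA numbered 220. Of these 18 fell and 4 rose (10.0%), against 3.79% of all members and 2.26% of all clusters. Among the 220 the median level was 7.70, against 5.60 over all members, and the part of level in this share was not tested. The median change was -0.0027 over the 220 and 0.02 over all clusters. In 190 of them every listed small RNA lay within the span of another listed gene. With a microRNA symbol, 13 of 158 fell and 2 rose, and with a snoRNA or small Cajal body RNA and no microRNA, 5 of 62 fell and 2 rose. Leaving out each array in turn left 7 to 9 falls among the 220.

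After CIT, the largest fall of this kind was that of CBX5, which encodes the heterochromatin protein HP1 alpha, with MIR3198-2. CBX5/MIR3198-2 had 9.68, 9.70 and 9.59 in PD 0332991 arrays, against 10.67, 10.59 and 10.66 in DMSO arrays. The groups stood apart by nearly a log2 unit, a 1.98-fold fall (limma adjusted p = 0.000566). STMN1 encodes stathmin, which takes microtubules apart, and STMN1/MIR3917 had 5.89, 5.83 and 5.87 in PD 0332991 arrays, against 6.74, 6.64 and 6.76 in DMSO arrays. That was a 1.80-fold fall with no overlap (limma adjusted p = 0.00110). HAUS4, a subunit of the augmin complex that branches spindle microtubules, with MIR4707 fell 1.53-fold (limma adjusted p = 0.0178), a call that held only without PD 0332991 array 3 among the 6 arrays left out in turn and otherwise reached an adjusted p of 0.0869. MIR484/NDE1, which names a centrosome and dynein regulator, had a change of -0.45 (limma adjusted p = 0.0349), and no single array could be left out without losing the call (adjusted p up to 0.148).

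Members also fell that name RNA-binding proteins, most of them with a small RNA. PTBP1, a repressor of exon inclusion, with MIR4745 had 12.51, 12.56 and 12.50 in PD 0332991 arrays, against 13.17, 13.32 and 13.20 in DMSO arrays. The 3 treated arrays were all lower, a 1.63-fold fall (limma adjusted p = 0.00360). RBMX/SNORD61, whose protein-coding gene binds RNA in splicing, had 11.51, 11.44 and 11.47 in PD 0332991 arrays, against 12.03, 12.09 and 12.07 in DMSO arrays, a 1.51-fold fall (limma adjusted p = 0.00408). HNRNPA1/HNRNPA1P10/HNRNPA1L2, a splicing regulator with a pseudogene and a retrocopy, had 14.79, 14.76 and 14.87 in PD 0332991 arrays, against 15.36, 15.53 and 15.45 in DMSO arrays, a 1.56-fold fall (limma adjusted p = 0.00775). In each of these 3 the groups did not overlap. HNRNPA3/MIR4444-1 at -0.48, KHSRP/MIR3940 at -0.45 and MIR636/SRSF2 at -0.43 also fell (limma adjusted p = 0.0314, 0.0140 and 0.0251). All but MIR636/SRSF2, which still passed without DMSO array 3, lost the call with any array left out, and the adjusted p of the 3 then reached 0.122, 0.0785 and 0.116. Of the 24 members that listed an HNRNP, SRSF, RBM, PTBP or KHSRP symbol, a group chosen after its values were seen, 6 fell (25.0%) and none rose, against 1.43% of all clusters with falls, and 22 had a change below 0, as did 27974 of the 65535 clusters; the choice of this group used its values. Several of the 24 list overlapping sets of symbols, so that these are not 24 separate genes.

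In some of these members, a cluster of the listed small RNA or copy alone could be set beside the member. HNRNPA3/MIR4444-1, given with other pairs below, did not differ from MIR4444-1 alone past the threshold (limma adjusted p = 0.425). SNORD61 had a cluster of its own with 16.12, 16.08 and 16.13 in PD 0332991 arrays, against 16.08, 16.17 and 16.31 in DMSO arrays, and these groups overlapped (log2 change -0.074, limma adjusted p = 0.773). The change of RBMX/SNORD61 lay -0.52 from it (95% interval -0.66 to -0.37, limma adjusted p = 0.0339 over 335 pairs), so that the cluster with the host fell and the one with the snoRNA symbol alone did not pass. HNRNPA1L2 alone had a change of -0.33 (limma adjusted p = 0.0698), and the HNRNPA1 cluster lay -0.31 from it (interval -0.40 to -0.22, adjusted p = 0.0339). Mean levels were 11.77 for RBMX/SNORD61 and 16.15 for SNORD61 alone, 15.13 for the HNRNPA1 cluster and 7.98 for HNRNPA1L2 alone, on a scale that reached 19.93, and the part of level in these differences was not tested.

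Over all 335 pairs of a member with a cluster that had 1 of its symbols, or FAM72D, 4 differed in change (limma adjusted p under 0.05). The 13 pairs in which the member had changed included the 2 above whose difference passed, and the rest of the 4 were pairs whose member did not pass. CYTOR/MIR4435-2HG, a pair of related long noncoding RNAs, had a change of -0.53 and a cluster under LINC00152, an older name of CYTOR, -0.48, a difference of -0.042 (interval -0.13 to 0.046). DDX12P/DDX11, a helicase of sister chromatid cohesion with its pseudogene, had a change of -0.49 and DDX11 alone -0.56, a difference of 0.070 (interval -0.031 to 0.17). C19orf48P/SNORD88C lay -0.29 from SNORD88C alone (interval -0.45 to -0.13, limma adjusted p = 0.0966), HNRNPA3/MIR4444-1 -0.38 from MIR4444-1 alone (interval -0.82 to 0.060) and TTC3/TTC3P1 0.24 from one cluster of TTC3P1 (interval 0.062 to 0.41, adjusted p = 0.168) and 0.015 from another (interval -0.36 to 0.39), none of which passed. Mean levels were 3.45 for MIR4444-1 alone, below the 4.50 median of all clusters, and 10.80 for its member. They were 5.16 for SNORD88C alone and 8.96 for its member, and the part of level in these differences was not tested. With 3 arrays per group the smallest exact permutation p for a single pair is 0.1.

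**Figure D4:**
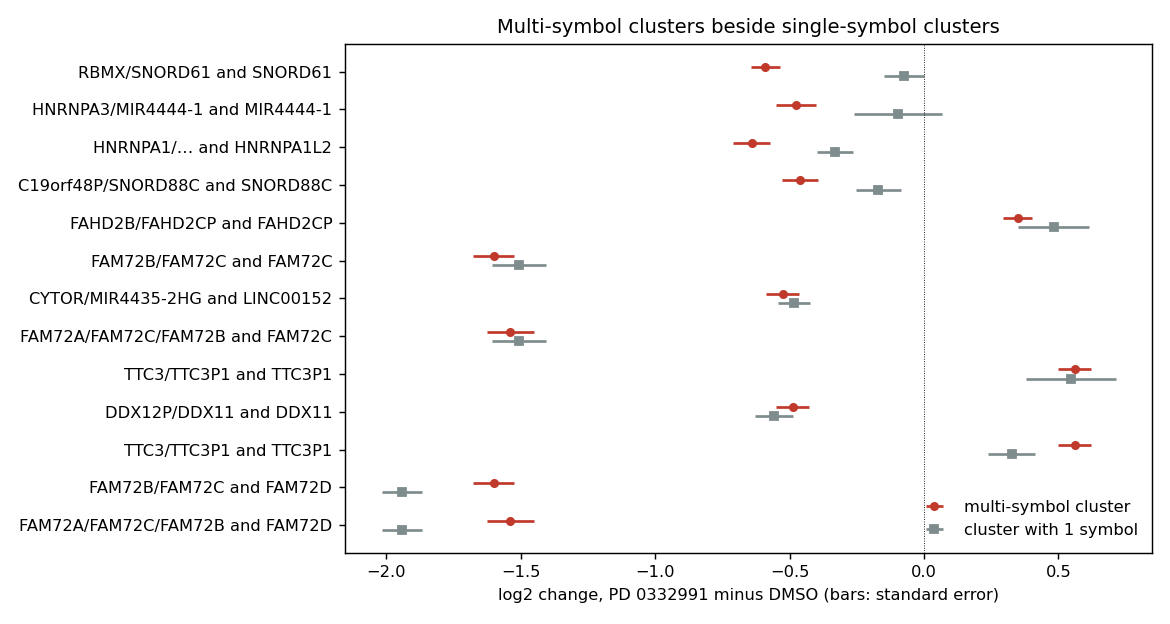
Log2 change, PD 0332991 minus DMSO, of multi-symbol clusters (red circles) and of a cluster with 1 of the same symbols, or of FAM72D (grey squares), for 13 pairs, with bars of 1 standard error. RBMX/SNORD61 against SNORD61 and the HNRNPA1 cluster against HNRNPA1L2 are the pairs whose difference passed, and the differences of the other pairs run from -0.38 to 0.40.

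Of 36 members that listed a ribosomal protein, translation or ribosome assembly gene, 2 fell and none rose (5.56%), against 2.26% of all clusters and 3.79% of all members, with a median change of -0.024. Their median level was 9.75, against 4.50 over all clusters. Of members above the median level of all clusters 5.62% changed, and the part of level in the share of the 36 was not tested. SNHG1, a host gene whose introns carry 8 of the listed snoRNAs and whose spliced RNA is noncoding, had 10.72, 10.79 and 10.76 in PD 0332991 arrays, against 11.31, 11.33 and 11.33 in DMSO arrays. The groups of this cluster, SNORD27/SNORD29/SNORD26/SNORD30/SNORD28/SNORD22/SNORD31/SNORD25/SNHG1, did not overlap, and it fell 1.48-fold (limma adjusted p = 0.00460). NOP56, a core protein of snoRNA particles, with its 5 snoRNAs and MIR1292 was just past the threshold at -0.36 (limma adjusted p = 0.0404), and its call was lost with any single array left out, with an adjusted p of up to 0.165. RCC1/SNHG3/SNORA73A at -0.17 and SNORA41/EEF1B2 at -0.16 did not pass (limma adjusted p = 0.269 and 0.306).

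The DLEU2 cluster names a long noncoding RNA on chromosome 13 and the microRNAs MIR15A and MIR16-1 cut from it, which are known to lower BCL2 and cell cycle genes. MIR15A/MIR16-1/DLEU2 had 5.03, 5.04 and 5.10 in PD 0332991 arrays, against 5.56, 5.50 and 5.43 in DMSO arrays. The groups did not overlap, and it fell 1.36-fold (limma adjusted p = 0.0210), a call that was lost with any single array left out (adjusted p up to 0.102). PTMA, an abundant nuclear protein linked to growth, shares a cluster with MIR1244 copies and PTMA pseudogenes, and PTMA/MIR1244-1/PTMAP9/MIR1244-2/MIR1244-3/PTMAP12 had 14.37, 14.33 and 14.37 in PD 0332991 arrays, against 14.70, 14.84 and 14.71 in DMSO arrays. It fell 1.31-fold (limma adjusted p = 0.0327) and likewise lost the call whichever of the 6 arrays was left out (adjusted p up to 0.126).

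Among 118 clusters of small RNAs alone, which include 16 of 5S ribosomal RNA genes with identical values, none passed, against 2.26% of all clusters. MIR1244-1/MIR1244-2 had the lowest change of these, -0.75 (limma adjusted p = 0.0728), with 14.16, 14.06 and 14.06 in PD 0332991 arrays, against 14.99, 15.07 and 14.50 in DMSO arrays. The groups did not overlap, and DMSO array 3 lay well below the other DMSO arrays. Without DMSO array 3 the change was -0.93 and passed (limma adjusted p = 0.00777), as it did when only clusters above the median level were fitted (adjusted p = 0.0407), in each of the 2 clusters of that name, whose values are identical. MIR103A2/MIR103B2 had a change of -0.41 (limma adjusted p = 0.0786) and MIR103A1/MIR103B1, which names the other genomic copy, 0.25 (limma adjusted p = 0.226).

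Members of other kinds with falls included UBALD2/FAM100B, which lists 1 gene under a current and an older name. It had 8.65, 8.80 and 8.78 in PD 0332991 arrays, against 9.68, 9.93 and 9.57 in DMSO arrays, a 1.98-fold fall with no overlap (limma adjusted p = 0.00709). MGME1, a mitochondrial nuclease that trims mitochondrial DNA ends, listed also as C20orf72, fell 1.61-fold (limma adjusted p = 0.00734). TUBA3C/TUBA3D, a pair of alpha-tubulin genes on different chromosomes, fell by 0.52 on the log2 scale (limma adjusted p = 0.0238), but not with any single array left out (adjusted p up to 0.0995). NRF1/RNA5SP244, a transcription factor of respiratory genes with a 5S pseudogene inside it, had a change of -0.54 (limma adjusted p = 0.0160), which passed only without PD 0332991 array 1 among the 6 arrays left out (adjusted p up to 0.0804).

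The 17 rises were smaller and spread over all kinds of cluster but small RNAs alone. The largest was MRPS6/SLC5A3, which names a mitochondrial ribosomal protein and the sodium/myo-inositol cotransporter, with the second gene inside the span of the first. The first start listed for each in RefSeq was the same, so that their 250 upstream bases were 1 stretch of genome. This cluster had 9.06, 8.88 and 8.88 in PD 0332991 arrays, against 8.24, 8.24 and 8.13 in DMSO arrays. The groups did not overlap, and the rise was 1.67-fold (log2 change 0.74 ± 0.076 SE, limma adjusted p = 0.00650). It was the one rise that passed with every single array left out, with an adjusted p of up to 0.0396. The noncoding LINC00649/LINC00650, 1 gene under 2 names, had 10.60, 10.90 and 10.59 in PD 0332991 arrays, against 10.03, 10.05 and 10.01 in DMSO arrays, a 1.58-fold rise (limma adjusted p = 0.0230). PD 0332991 array 2 stood above the others, and the cluster passed without that array, but not when any other was left out (adjusted p up to 0.102).

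MAGED4 and MAGED4B are near-identical X-linked genes of the MAGE family, 116 kb apart, and 2 clusters listed both with SNORA11D. One of these had 9.73, 9.70 and 9.86 in PD 0332991 arrays, against 9.11, 9.20 and 9.06 in DMSO arrays, a 1.56-fold rise (limma adjusted p = 0.00931). In the other the rise was 1.504-fold (limma adjusted p = 0.00951), with no overlap in either. As their upstream sequences matched at 185 of 185 aligned bases and both clusters list both genes, the 2 clusters are not separate evidence, and both calls were lost without DMSO array 1 or DMSO array 3 (adjusted p up to 0.0538). MIR22HG/MIR22, a noncoding host and the microRNA within it, had 6.56, 6.39 and 6.63 in PD 0332991 arrays, against 5.95, 5.91 and 6.02 in DMSO arrays. It rose 1.48-fold (limma adjusted p = 0.0211), and passed only without PD 0332991 array 2 among the 6 arrays left out in turn (adjusted p up to 0.102).

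TTC3, a ubiquitin ligase, with its pseudogene TTC3P1 had 14.16, 14.13 and 14.24 in PD 0332991 arrays, against 13.67, 13.60 and 13.57 in DMSO arrays, a 1.48-fold rise with no overlap (limma adjusted p = 0.00794) that was lost without DMSO array 2 (adjusted p = 0.0544). OSTC, a subunit of the oligosaccharyltransferase that adds sugars to new proteins in the endoplasmic reticulum, with OSTCP2 rose by 0.54 (limma adjusted p = 0.0228). SEC22B, a SNARE of transport between endoplasmic reticulum and Golgi, with SEC22B3P rose by 0.45 (limma adjusted p = 0.0329). Neither call held: OSTC/OSTCP2 lost the call whichever array was left out (adjusted p up to 0.0934) and SEC22B/SEC22B3P kept it when DMSO array 1 was left out but lost it when any other array was (adjusted p up to 0.136). The secretory list itself held 1 member, DDOST/PINK1-AS, with a change of 0.18 (limma adjusted p = 0.300).

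Of 3 members that listed an interferon-related gene, 1 rose, where 0.835% of all clusters did. TRIM34/TRIM6-TRIM34, a TRIM-family gene with its readthrough transcript, had 6.64, 6.53 and 6.62 in PD 0332991 arrays, against 6.11, 6.11 and 6.14 in DMSO arrays. All treated arrays were higher, a 1.39-fold rise (limma adjusted p = 0.0120) that passed only without PD 0332991 array 2 among the 6 left out (adjusted p up to 0.0720). OR56B1/TRIM22 at 0.15 and IRF9/RNF31 at 0.16 did not pass (limma adjusted p = 0.435 and 0.290).

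Readthrough clusters, in which a transcript runs from one gene into the next, numbered 75, of which 4 rose (5.33%) and none fell. Of all clusters 2.26% changed, 0.835% higher and 1.43% lower. The median level of the 75 was 6.36, against 4.50 over all clusters, and the part of level in this share was not tested. Besides TRIM34 the readthrough clusters that rose were ERCC5/BIVM-ERCC5, a nuclease of nucleotide excision repair, at 0.36, the TVP23C and CDRT4 cluster at 0.35 and SYNJ2BP-COX16/COX16/SYNJ2BP, of 2 mitochondrial proteins, at 0.32 (limma adjusted p = 0.0352, 0.0403 and 0.0345). These last 3 lost their calls with any array left out, with an adjusted p of up to 0.166 for the TVP23C cluster. CHD2, a chromatin remodeller, shared a cluster with MIR3175 and CHASERR, a noncoding RNA whose mouse counterpart holds Chd2 down, and CHD2/MIR3175/CHASERR rose 1.30-fold (limma adjusted p = 0.0212), again with no call once an array was left out (adjusted p up to 0.104).

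**Figure D5:**
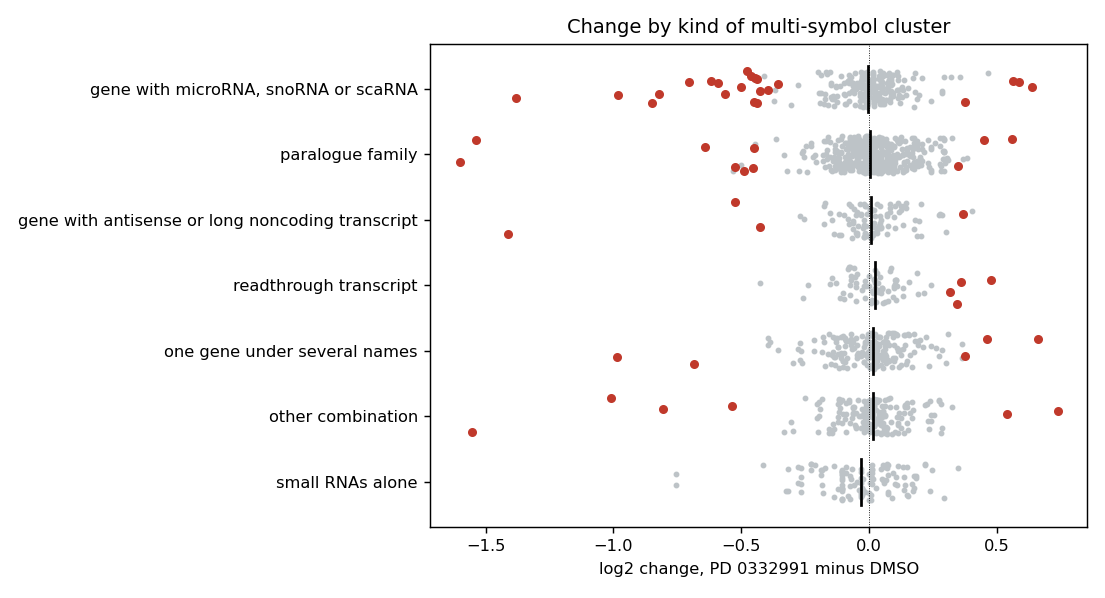
Log2 change, PD 0332991 minus DMSO, of every member, 1 row of points for each of the 7 kinds of multi-symbol cluster, with red points past the threshold (limma adjusted p under 0.05) and a black line at each median. The row of genes with microRNAs, snoRNAs or small Cajal body RNAs holds 22 red points (10.0%). The row of small RNAs alone holds none among 118, where 2.26% of all clusters passed.

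Most clusters of paralogue families did not pass. Of 457 clusters whose symbols share a stem, 7 fell and 3 rose (2.19%), near the 2.26% of all clusters, and their median level was 4.58. With each array left out in turn 3 to 5 fell. The 7 were the FAM72 clusters, HNRNPA1, TUBA3C/TUBA3D, DDX12P/DDX11, SRGAP2/SRGAP2D and PRIM2/PRIM2BP. The replacement histone genes H3-3A and H3-3B, which the choice of members leaves in, gave -0.37 with MIR4738 (limma adjusted p = 0.0736) and -0.16 with the pseudogene H3P6 (limma adjusted p = 0.545), and neither passed. Of 101 genes with an antisense or long noncoding transcript 3 fell and 1 rose, of 187 clusters naming 1 gene several times 2 fell and 3 rose, and of 186 other combinations 4 fell and 2 rose.

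The members are not 1344 separate measurements. In 131 of them (9.75%) the values on all 6 arrays were identical to those of another cluster, against 2.22% of all clusters, and the members held 1265 distinct sets of values. The largest set of identical members was 16 clusters of 5S ribosomal RNA genes, followed by 7 of U1 small nuclear RNA and 7 of CT47A cancer-testis genes. None of the 51 members that changed had an identical partner. By RefSeq 103 members listed genes on more than 1 chromosome, so that the symbols do not assign the value of such a cluster to 1 gene. In 387 members the set of symbols was shared with another member.

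The remaining members past the threshold changed by less. SNORA29/TCP1, which names a subunit of the cytosolic chaperonin, fell by 0.50 on the log2 scale (limma adjusted p = 0.0105) and C19orf48P/SNORD88C by 0.46 (limma adjusted p = 0.0225). These passed only without PD 0332991 array 3 and only without PD 0332991 array 2 among the 6 arrays left out, with an adjusted p of up to 0.0619 and 0.1002. SMIM14/C4orf34, a small membrane protein under 2 names, rose by 0.46, ANKEF1/ANKRD5 by 0.38, SND1/SND1-IT1, a nuclease with a transcript inside it, by 0.37 and FAHD2B/FAHD2CP by 0.35 (limma adjusted p = 0.0264, 0.0402, 0.0303 and 0.0301). None of these 4 rises passed once any array was left out, with an adjusted p of up to 0.160 for ANKEF1/ANKRD5.

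Values lay close on either side of the threshold. Just past it were SNORD89/RNF149 (log2 change -0.44, limma adjusted p = 0.0422) and the NOP56 cluster. Just short of it were UCK2/MIR3658, with a uridine-cytidine kinase (log2 change -0.37, limma adjusted p = 0.0505), and ITFG1/RNA5SP424 (log2 change 0.33, limma adjusted p = 0.0517). Of the 51 members that changed, 17 passed with every single array left out: MRPS6/SLC5A3, both FAM72 clusters, PAK6/BUB1B, RRM1/LINC02749, CIT/MIR1178, SGK494/SPAG5, UBALD2/FAM100B, CBX5/MIR3198-2, STMN1/MIR3917, RAD21/MIR3610, RAD54B/FSBP, PTBP1/MIR4745, MGME1/C20orf72, RBMX/SNORD61, and the HNRNPA1 and SNHG1 clusters.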

How the data were processed

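For 3 PD 0332991 and 3 DMSO arrays, a table with a value for each transcript cluster was deposited, with Affymetrix Expression Console named in the submitters' processing notes without a version. The deposited values were taken as log2 from their range, because the log base, background correction and normalization are not given in the sources used here. No further scaling was applied.

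Symbols came from the platform annotation, and gene positions, kinds and sequences from RefSeq (GRCh38.p14). Clusters with 2 or more symbols were sorted into 7 kinds by symbol and RefSeq gene type; clusters of small RNAs alone were kept apart from paralogue families. The comparison of PD 0332991 with DMSO used limma 3.58.1 under R 4.3.3 (empirical Bayes, two-sided), fitted on all 65535 clusters, with Benjamini-Hochberg adjustment over all of them and a threshold of 0.05, and intervals at 95%. The limma step was tested on simulated data. Rose and fell are used for members past the threshold. The number of arrays limits the precision of each value.

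Differences of changes within pairs of clusters were fitted with limma on the difference per array and adjusted over all 335 pairs, 2 of them with FAM72D, after leaving out 14 pairs with identical values. Named members were the 14 largest falls, the 12 largest rises, those listing RRM1, BUB1B, CIT or FAM72 genes, the 4 with the smallest p in each kind and gene list, microRNA hosts past a 1.5-fold change, and 2 on either side of the threshold. Other members are named after their values were seen. The members and lists were chosen with earlier results of these data known.

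Replicate numbers are shared between groups, but deviations of same-numbered arrays from their group means correlated at -0.0041, -0.023 and 0.023, so they were not taken as pairs. Alternatives were a replicate block, quantile normalization, median centring, a filter on dim clusters, clusters with a symbol alone, limma trend with robust moderation, a threshold of 0.01, and each array left out in turn. Some marker genes are not reported here.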

Additional observations from a re-analysis of the deposited data

How the results depend on the processing

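The 10 falls among replication and division members stayed within 1.5 times of that count under all alternatives run for it: 7 with the replicate block, 10 with quantile normalization, 10 with dim clusters left out and 8 to 9 with each array left out in turn. The other counts moved. Members with falls numbered 34, but 11 with the replicate block, 64 when only clusters with a symbol were fitted, 16 at the threshold of 0.01 and 17 to 19 with each array left out; quantile normalization gave 30, median centring 34, the filter on dim clusters 47 and trend with robust moderation 40. Members with rises numbered 17, but 1 with the replicate block, 11 with median centring, 30 with the filter on dim clusters, 55 with only clusters with a symbol, 26 with trend and robust moderation, 4 at 0.01 and 2 to 7 with each array left out, while quantile normalization gave 20. Falls among paralogue families numbered 7, but 2 with the block and 3 to 5 with each array left out. Falls among genes with a small RNA numbered 18, but 5 with the block and 7 to 9 with each array left out. The cause of these shifts was not tested; the fit on clusters with a symbol had 24070 clusters to adjust over, and leaving out an array left 5 arrays.

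No named member reversed its direction under the alternatives run. Of the 37 named members that passed, 12 did so under every alternative, 25 lost the call with the replicate block, 5 with median centring, 1 with quantile normalization and 14 to 20 with 1 array left out. The replicate numbers are not shown to pair the samples, so a call lost under the block is not a weaker effect. With 3 arrays per group, a change that did not pass may still be present. No member below the median level of all clusters passed.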
